A study of Mus musculus with 6 samples.

Results

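In 190 of 3649 B cells with a light chain from the spleen of a 564Igi mouse (5.21%, 95% interval 4.51 to 5.98), the knock-in kappa light chain was present together with another productive light chain. These dual light chain cells were chosen from the receptor contigs themselves. A cell was a barcode that the B cell table called and the T cell table did not. Only productive contigs with the high-confidence flag and 2 or more unique molecular identifiers (UMIs, each marking 1 captured transcript) counted, and the cell had to hold a kappa contig with the CDR3 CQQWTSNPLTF and at least 1 further light chain with different CDR3 nucleotides. The 190 cells made up 5.49% (4.75 to 6.30) of the 3462 564Igi cells that held the knock-in light chain. The other 3272 holders had no second light chain and are called knock-in-only cells, and 187 564Igi cells had light chains but not the knock-in one. Of the 377 564Igi cells with any light chain other than the knock-in, 190 (50.4%, 45.2 to 55.6) thus held the knock-in chain as well. This share depends on the flag: without asking for it, 238 cells held both chains and 147 had only other light chains. Of the 187 cells, 22 had a near copy of the knock-in chain (same V and J gene, at most 2 CDR3 mismatches). At least 2 light chains of any kind were held by 198 of 3649 564Igi B cells (5.43%, 4.71 to 6.21) and 997 of 6395 WT B cells (15.6%, 14.7 to 16.5). A droplet with 2 knock-in-only cells would still show 1 light chain, whereas 2 WT B cells mostly carry different ones. Droplets with 2 B cells therefore enter these shares unequally. In the 6 cells that held 3 light chains, the strongest chain other than the knock-in is the one described.

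The study profiled total splenocytes, depleted of Ter-119-positive erythroid cells, from 1 mouse of each genotype by droplet-based 5′ single-cell sequencing with B cell and T cell receptor (V(D)J) libraries. The 564Igi mouse was a heterozygote of the line with the Ightm1(Igh564)Tik and Igktm1(Igk564)Tik alleles on B6.129S4(Cg), in which a rearranged heavy chain and a rearranged kappa chain of an autoreactive antibody sit in the Igh and Igk loci, and the reference mouse was wild-type (WT) C57BL/6JRj. The labels do not give the knock-in sequences, so the chains shared by most 564Igi B cells were taken as the knock-in chains. With 1 mouse per genotype no test between mice was possible, and cells of 1 mouse share their source, so all comparisons are given as values with exact (Clopper-Pearson) intervals for shares, Newcombe-type intervals for differences and order-statistic intervals for medians, at 95% and covering counting error only. The B cell tables held 747499 UMIs in 564Igi and 927382 in WT. Barcodes called in both the B and T cell tables, 373 of 4200 in 564Igi and 345 of 6858 in WT, were left out, and 31 of 3827 564Igi B cell barcodes were also called in WT. Among the 190 dual light chain cells, 2 had a barcode also called as a WT B cell, and in 0 of them was the other light chain found in that WT barcode. No doublet caller was run, so droplets that captured 2 B cells remain in all groups.

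A B cell normally displays a single heavy and a single light chain, a rule called allelic exclusion, with the kappa locus rearranged before the lambda loci. A developing B cell whose receptor binds self can go on rearranging its light chain loci, which is called receptor editing, and kappa rearrangement proceeds from upstream to downstream J segments until the locus is used up or deleted. A knock-in mouse that carries its light chain on 1 of its kappa alleles still has a second kappa allele and the lambda loci to rearrange, so a cell can hold both products. Kappa V genes lie on chromosome 6 and lambda genes on chromosome 16 of the mouse.

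The following CDR3 sequences, read 5′ to 3′ from the contig tables, are shown because the comparison turns on how the other light chains differ from the knock-in chain. All 190 cells held the same nucleotide form of the knock-in light chain, which joins IGKV4-59 to IGKJ5. In the light chains, capitals mark the terminal bases shared by at least 90% of the dual cells' chains of that J segment. In the heavy chain they mark its last 30 bases, which many other 564Igi heavy chains share. In the IGKV4-68 chain the capital marks the only difference from the knock-in CDR3, C14G, counted from 1 at the 5′ end of the CDR3.
knock-in light chain, IGKV4-59 with IGKJ5: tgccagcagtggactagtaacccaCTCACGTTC
knock-in heavy chain, IGHV1-53 with IGHJ4: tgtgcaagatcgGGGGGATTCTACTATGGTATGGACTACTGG
most frequent other chain, IGLV1 with IGLJ1: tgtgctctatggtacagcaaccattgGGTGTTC
IGKV6-17 with IGKJ2: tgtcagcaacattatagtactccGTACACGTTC
IGKV6-23 with IGKJ2: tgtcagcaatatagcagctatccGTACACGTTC
IGKV2-137 with IGKJ2: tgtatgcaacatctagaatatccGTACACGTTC
IGKV17-127 with IGKJ5: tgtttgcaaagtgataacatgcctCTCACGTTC
only other chain of the IGKV4 family, IGKV4-68 with IGKJ5: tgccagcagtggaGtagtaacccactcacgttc

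The UMI balance between the light chains leaned to the other chain. The knock-in chain had fewer UMIs than the other chain in 167 of 190 cells (87.9%, 82.4 to 92.2), as many in 3 and more in 20. Its share of the UMIs of both chains ranged from 11.5% to 84.9%, with a median of 27.8% (26.1 to 29.9) and quartiles of 22.2% and 36.9%. The share was under 15% in 3 cells, from 15% to under 20% in 23, from 20% to under 30% in 82, from 30% to under 40% in 45, from 40% to under 50% in 14, from 50% to under 60% in 10 and 60% or more in 13. Most cells therefore had more than 2 other-chain UMIs for each knock-in UMI, and cells with an even balance were few. When light chain UMIs were thinned to 10 per cell, which left 176 dual cells, the knock-in chain was lower in 72.2%, with a median share of 30%.

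As counted with the flag, the knock-in chain stood at the same median level with and without another light chain. Its median was 17 UMIs (16 to 18) in the dual light chain cells, against 17 (17 to 18) in the 3272 knock-in-only cells. The other chain had a median of 43 UMIs (38 to 50) in the dual cells. Light chains of 564Igi cells without the knock-in chain had a median of 44 UMIs in the 165 cells left after near copies of the knock-in chain were set aside, and the light chain of WT cells with 1 light chain had a median of 40 (39 to 41). Over all V genes together, the median of each chain was thus near that in cells counted as lacking the other kind. These counts rest on the flag: 42 of the 187 cells counted as lacking the knock-in chain held an unflagged contig of it. Without asking for the flag, the knock-in chain had a median of 16 UMIs (14 to 17) in dual cells. The median sum in dual cells was 63 UMIs (55 to 72). Heavy chain UMIs were alike, with medians of 16 (14 to 19) in dual cells and 18 (18 to 18) in knock-in-only cells. Over the 190 cells the UMIs of both light chains rose together (Spearman rho 0.58). The heavy chain UMIs followed the knock-in chain with rho 0.57 and the other chain with rho 0.47 over the 171 cells with a heavy chain. These are descriptions across cells of 1 library, whose points share the capture depth of the cell.

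**Figure D1:**
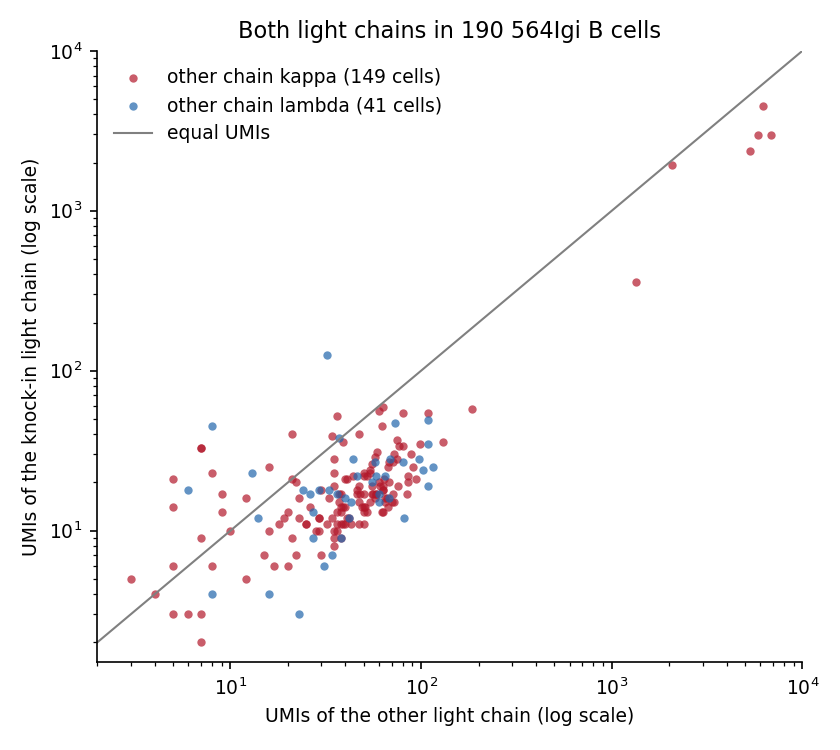
UMIs of the knock-in light chain (vertical, log scale) against UMIs of the other light chain (horizontal, log scale) in 190 564Igi B cells, coloured by the class of the other chain. The line marks equal UMIs: 167 cells lie below it, 3 on it and 20 above it, and kappa and lambda cells overlap.

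**Figure D2:**
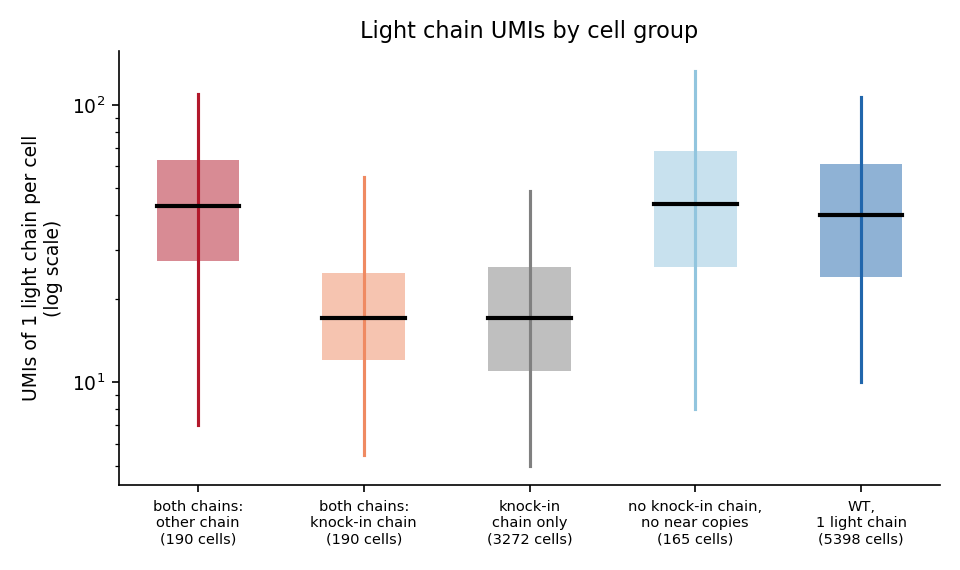
UMIs per cell (log scale) of the other chain and the knock-in chain of the 190 dual light chain cells, of the knock-in chain in knock-in-only cells, of the strongest light chain in 564Igi cells without it (near copies set aside) and of WT cells with 1 light chain. Thick lines are medians (43, 17, 17, 44 and 40), boxes the quartiles and lines the 5th to 95th percentiles.

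The low level was not confined to the 564Igi mouse. In WT cells with 1 light chain, those using IGKV4-59 had a median of 20 UMIs (18 to 22, 94 cells), and those joining it to IGKJ5, as the knock-in does, had 21 (18 to 25, 45 cells). IGKV4-59 ranked 9 from the lowest of 59 V genes with at least 20 such cells. In the 32 WT cells in which an IGKV4-59 chain was found beside another light chain, it was the lower chain in 27 (84.4%, 67.2 to 94.7) and held a median of 32.6% (28.2 to 40) of the UMIs. The interval of that share overlaps the one for the knock-in chain in the dual cells. Over pairs of any V gene the stronger chain held a median of 73.5% (71.2 to 74.4) of the UMIs in the dual cells, against 63.9% (63.3 to 64.7) in the 997 WT cells with at least 2 light chains. Reads per UMI were also lower for the knock-in chain, with a median of 43.0 against 50.8 for the other chain of the same cells. Whether capture or amplification of IGKV4-59 transcripts sets these levels was not tested.

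The confidence flag bears on the balance and on the count of dual cells. Of the 187 564Igi cells counted as lacking the knock-in chain, 42 (22.5%, 16.7 to 29.1) held a contig with the knock-in CDR3 that lacked the flag. In these 42 cells the knock-in contig had a median of 7.5 UMIs, 11.8% of the UMIs of both chains, and the weaker chain reached at most 19.7% of the stronger. All 42 had a kappa chain beside it. In the 149 dual cells whose other chain was kappa the weaker chain had at least 20.2% of the stronger chain's UMIs, whereas with a lambda chain it went down to 13.0%. WT cells showed the same edge, with at least 20% for 2 kappa chains and 2.41% for kappa with lambda. Kappa pairs with a stronger imbalance were therefore not counted. Without asking for the flag, 238 cells held both chains (6.80% of holders), and the median knock-in share was 25.8%. At the UMI minimum, just inside, 1 dual cell had the knock-in chain at 2 UMIs, and the other chain was never below 3. Just outside, 14 of the 22 knock-in-only cells with some productive light contig beyond the rule had it at 1 UMI, and 2 of the 42 unflagged knock-in contigs had 1 UMI.

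The knock-in chain was rarely found in barcodes called only as T cells. Of the 4573 564Igi barcodes that only the T cell table called, 122 held a contig with its CDR3 (2.67%, 2.22 to 3.18), with a median of 1 UMI and 5 UMIs or more in 2. Barcodes that the B cell table also called are outside this count, which by itself keeps these values low. Whether such contigs are free transcripts or come from a captured B cell was not tested. In the dual cells the knock-in chain reached 5 UMIs or more in 182 of 190 cells and the other chain in 188. Other light chains were found in 21 of those 4573 T cell barcodes. In WT, the knock-in CDR3 was found in 0 of 6395 B cells, which allows up to 0.0469%.

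The other chain was kappa in 149 of the 190 cells and lambda in 41 (21.6%, 15.9 to 28.1). The 564Igi cells without the knock-in chain had lambda in 52 of 187 (27.8%, 21.5 to 34.8), a difference of -6.23 points (-15.2 to 2.84) whose interval included 0. That count keeps 22 near copies of the knock-in chain, all kappa. With them set aside lambda made up 52 of 165 (31.5%, 24.5 to 39.2), farther from the dual cells, so the difference also depends on the near copies. Without asking for the flag, which moves kappa cells from that group to the dual cells, lambda made up 17.2% of dual cells and 35.4% of cells without the knock-in chain, and the difference was -18.1 points (-27.6 to -8.74), so this comparison depends on the flag. In WT cells with at least 2 light chains whose strongest chain was kappa, the next chain was lambda in 56 of 882 (6.35%), so that dual cells minus WT gave 15.2 points (9.32 to 21.9). That WT count requires the kappa chain to be the stronger, and in the dual cells it usually was not. Counted in any order, among WT dual cells with at least 1 kappa chain, 163 of 989 (16.5%, 14.2 to 18.9) held lambda beside it, and the difference was 5.10 points (-1.04 to 12.01). This last comparison was added after the values had been seen. WT kappa and lambda pairs also had the kappa chain lower, in 107 of 163 cells (65.6%, 57.8 to 72.9). In the dual cells as counted, the median knock-in share was 28.1% (26.1 to 30) beside kappa and 27.5% (24.3 to 32.4) beside lambda. The knock-in chain was lower in 87.9% and 87.8%. These classes were cut at unlike ratios: the weaker chain had at least 20.2% of the stronger chain's UMIs beside kappa and 13.0% beside lambda. All 48 cells that count as dual only without the flag had kappa, so the likeness covers only pairs that kept the flag.

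Within the lambda chains IGLV1, the most used mouse lambda V gene (chromosome 16, 19085017 to 19085460 in GRCm38.p6), accounted for 35 of 41 (85.4%, 70.8 to 94.4). Its share was 33 of 52 (63.5%, 49.0 to 76.4) in cells without the knock-in chain, a difference of 21.9 points (2.46 to 39.0), and 60.9% (53.3 to 68.1) of 179 lambda chains in WT dual cells. IGLV2 was found in 4 dual cells and IGLV3 in 2. IGLJ1, the J segment that pairs with IGLV1 and IGLC1, was used in 30, IGLJ2 in 6 and IGLJ3 in 5. The constant gene was named IGLC1 in 30 and IGLC3 in 11, and IGLC2 was not named. Whether the naming separates IGLC2 from IGLC3 was not tested. IGLJ1 thus made up 73.2% (57.1 to 85.8) in the dual cells, against 22 of 52 (42.3%, 28.7 to 56.8) in cells without the knock-in chain.

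Downstream J segments were less frequent among the 149 other kappa chains than among the kappa chains of 564Igi cells without the knock-in, and near their WT frequency. IGKJ1, the J segment nearest to the V genes, was used in 37 (24.8%, 18.1 to 32.6), IGKJ2 in 57 (38.3%, 30.4 to 46.6), IGKJ4 in 18 (12.1%, 7.32 to 18.4) and IGKJ5, the last, in 37 (24.8%, 18.1 to 32.6). IGKJ3, which lacks a functional splice site in mice, was found in 0 of 149, which allows up to 2.01%. Downstream IGKJ4 and IGKJ5 together made up 36.9% (29.2 to 45.2). They made up 38.8% (37.5 to 40.05) of 5886 primary kappa chains in WT, a difference of -1.87 points (-9.73 to 6.50), and 45.3% (42.1 to 48.6) of 933 second kappa chains in WT, a difference of -8.42 points (-16.8 to 0.465). Those WT second chains are the lower of their pair by definition, unlike the other chain in most dual cells. In 564Igi cells without the knock-in chain they made up 58.4% (48.8 to 67.6) of 113 kappa chains once 22 near copies of the knock-in chain (same V and J gene, at most 2 CDR3 mismatches) were set aside, so that the dual cells were 21.5 points lower (-33.5 to -8.78). With IGKV4 genes left out of every group, an alternative chosen after seeing the data, the shares were 36.5%, 53.0% and 36.1%, in the order of the dual cells, the cells without the knock-in chain and WT primary chains, and the dual cells were 16.5 points below the cells without it (-30.03 to -2.52). The unflagged cells lean the other way: of the 48 cells that count as dual only without the flag, 26 (54.2%) used IGKJ4 or IGKJ5. Counting them gave 41.1% in dual cells and left the difference from cells without the knock-in chain at -19.2 points (-32.4 to -5.04).

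**Figure D3:**
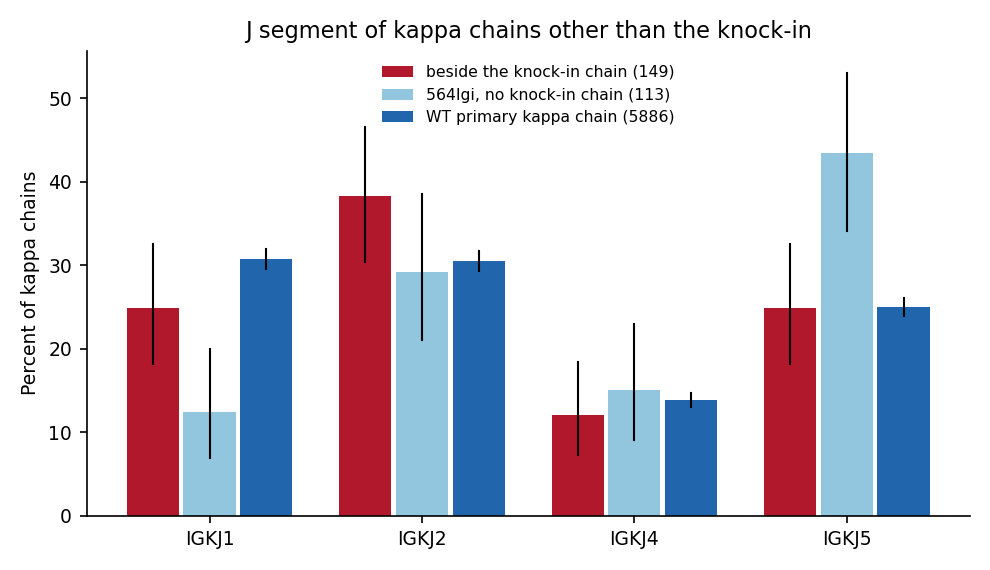
Percent of kappa chains using each J segment, with exact 95% intervals, for the other chain of dual light chain cells, the strongest kappa chain of 564Igi cells without the knock-in chain (near copies set aside) and WT primary kappa chains. IGKJ5 stands at 24.8% beside the knock-in chain, 43.4% without it and 24.96% in WT.

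The J segments were also set side by side within heavy chain classes, described further on. Among cells whose heavy chain was neither the knock-in nor carried its end, IGKJ4 or IGKJ5 was used by 33 of 84 dual cells (39.3%, 28.8 to 50.5) and 34 of 55 cells without the knock-in light chain (61.8%, 47.7 to 74.6). Among cells with the end of the knock-in heavy chain it was used by 13 of 34 (38.2%, 22.2 to 56.4) and 21 of 27 (77.8%, 57.7 to 91.4). With the knock-in heavy chain both groups stood at 4 of 14 (28.6%). The balance was no different for chains with IGKJ5, whose median knock-in share was 29.8% (23.8 to 32.1, 37 cells).

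The V genes of the other kappa chain covered 46 of the 92 kappa V genes used by WT primary chains. The most used V genes over both light chain classes were IGLV1 (35 cells), IGKV6-23 (13), IGKV1-117, IGKV1-135 and IGKV6-17 (9 each), IGKV17-127 and IGKV2-137 (7 each), and IGKV1-110, IGKV10-96 and IGKV14-111 (6 each). Of the 92 kappa V genes, 2 (2.17%) differed at least 2-fold from WT primary chains with intervals that did not overlap. IGKV6-23 (chromosome 6, 70260409 to 70260933 in GRCm38.p6) made up 8.72% (4.73 to 14.5) of the other chains, against 2.33% (1.96 to 2.75) in WT. IGKV2-137 (chromosome 6, 67555636 to 67556216) made up 4.70% (1.91 to 9.44), against 1.38% (1.09 to 1.71). When each distinct chain was counted once, 0 genes passed, and when barcodes called in both tables were kept only IGKV6-23 did.

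The 13 IGKV6-23 cells all had the knock-in chain lower, with knock-in shares from 21.5% to 48.3%. In the most uneven of them the knock-in chain had 14 UMIs and the IGKV6-23 chain 51, and in the most even 56 and 60. The 7 IGKV2-137 cells likewise all had the knock-in chain lower, at 22.0% to 42.1%, and 1 of them was far deeper than the rest, with 2347 knock-in and 5280 other UMIs. Beside the 9 IGKV1-117 chains, a V gene with a high WT median of 63 UMIs, the knock-in share had a median of 22.2%. Beside the 6 IGKV10-96 chains, whose WT median was 33 UMIs, it had a median of 37.0%. Among the named V genes the knock-in share tended to be smaller where the partner V gene was read at a high level in WT, a description over few cells per gene. Of the 9 IGKV6-17 cells, whose WT median was 52 UMIs, 5 were shallow, with 2 to 4 knock-in and 4 to 7 other UMIs, and 4 of these had no heavy chain. The other 4 had 13 to 18 knock-in and 50 to 63 other UMIs. IGKV8-24, at a WT median of 16 UMIs, was an exception: its 5 cells had a median knock-in share of 30%, with all 5 knock-in chains lower.

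By family, IGKV6 genes made up 22.8% (16.3 to 30.4) of the other kappa chains, against 12.9% (12.03 to 13.8) in WT primary chains, 9.94 points higher (3.41 to 17.6). IGKV2 made up 8.05% (4.23 to 13.6), against 3.11% (2.68 to 3.58). The IGKV1, IGKV3, IGKV5, IGKV8, IGKV10, IGKV12 and IGKV14 families differed from WT primary chains by between -3.10 and 2.46 points, with intervals that included 0. Cells without the knock-in chain also used IGKV6 in 23 of 113 (20.4%, 13.4 to 29.0). The interval of that share overlaps the one for the dual cells.

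The IGKV4 family, to which the knock-in V gene belongs, was nearly missing from the other chains. It was found in 1 of 149 (0.671%, 0.0170 to 3.68), against 30 of 113 (26.5%, 18.7 to 35.7) in cells without the knock-in chain after near copies were set aside, 12.2% (11.4 to 13.1) of WT primary kappa chains and 20.04% (17.5 to 22.8) of WT second kappa chains. WT second chains are the lower of their pair by definition, whereas the other kappa chain of dual cells was the higher in 131 of 149. The share of WT second chains is therefore not a like measure. The flag touches this result. Without asking for it, 11 of 197 other kappa chains (5.58%) were IGKV4, 10 of them among the 48 added cells. WT cells showed a like gap between pairs: with an IGKV4 first chain the second kappa chain was also IGKV4 in 3 of 49 (6.12%, 1.28 to 16.9), against 165 of 777 (21.2%, 18.4 to 24.3) with a first chain of another family, and beside IGKV4-59 it was 0 of 30, which allows up to 10%. Whether contig assembly separates chains of such similar V genes was not tested. The single IGKV4 chain in a dual cell, IGKV4-68 with IGKJ5, differs from the knock-in CDR3 by C14G. In that cell the knock-in chain had 33 UMIs and the IGKV4-68 chain 7. No other light chain came closer than 10 mismatches among those of the same CDR3 length. Near copies of the knock-in chain itself were found in 0 of 190 dual cells, which allows up to 1.58%, and in 22 of 187 cells without it (11.8%, 7.52 to 17.3).

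**Figure D4:**
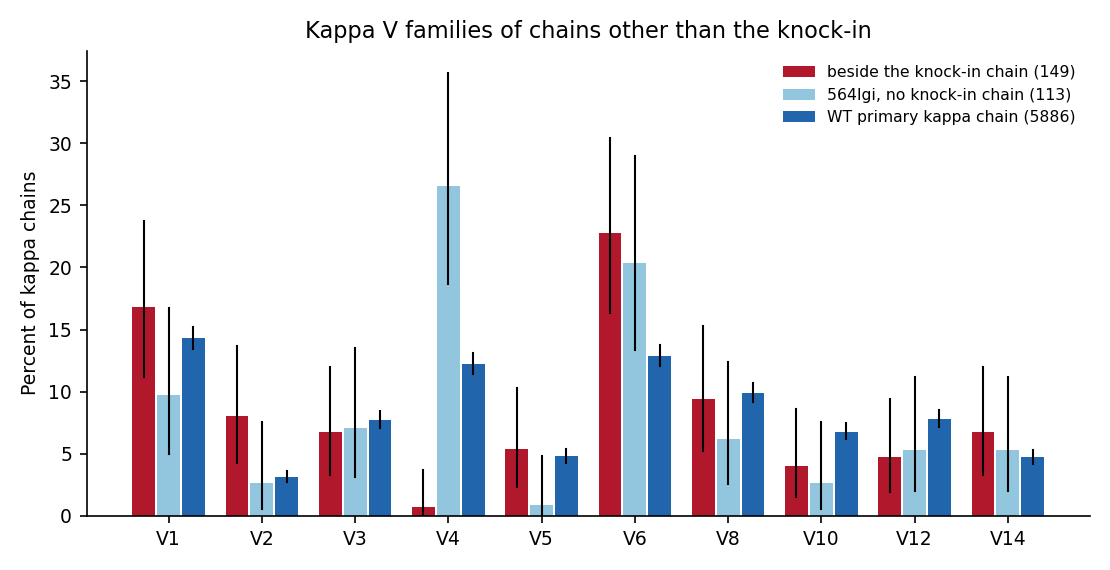
Percent of kappa chains using each IGKV family, with exact 95% intervals, for the other chain of dual light chain cells, the strongest kappa chain of 564Igi cells without the knock-in chain (near copies set aside) and WT primary kappa chains. IGKV4 stands at 0.671%, 26.5% and 12.2%, and IGKV6 at 22.8%, 20.4% and 12.9%.

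The position of the V gene along the locus was compared as well. The knock-in V gene Igkv4-59 lies at chromosome 6, 69438218 to 69438741, and Igkj5 at 70723886 to 70723923 (GRCm38.p6). Of the 149 other kappa chains, 77 (51.7%, 43.4 to 59.9) used a V gene farther from the J segments than Igkv4-59, against 43.4% (34.1 to 53.0) in cells without the knock-in chain and 52.0% (50.7 to 53.3) of WT primary chains. The distance from the V gene to Igkj5 had a median of 1988 kb (901 to 2286) for the other chains, against 1180 kb (1075 to 1440) in cells without the knock-in chain and 1456 kb (1346 to 1497) in WT primary chains, with an interval for the dual cells that spans both. The CDR3 had 11 amino acids in 134 of 149 (89.9%), against 89.8% of WT primary chains. It carried aspartate or glutamate, the acidic residues, in 48 (32.2%, 24.8 to 40.4), against 26.5% (25.3 to 27.6) in WT. A net positive CDR3 charge was found in 8 (5.37%, 2.35 to 10.3), against 11 of 113 (9.73%, 4.96 to 16.8) in cells without the knock-in chain and 11.8% (11.01 to 12.7) in WT.

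Many of the other chains recurred. The 190 cells held 113 distinct ones, 103 kappa and 10 lambda. Of these, 80 occurred in a single dual cell, while 33 occurred in at least 2 and covered 110 of the 190 cells. The 15 that occurred in at least 3 covered 74 cells. The most frequent was the IGLV1 with IGLJ1 chain printed above, whose CDR3 reads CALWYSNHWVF. It was in 14 dual cells with 13 different heavy chain CDR3s, and it was also found in 165 WT cells. The IGKV6-17 with IGKJ2 chain was in 6 dual cells, 4 of them shallow cells that fall out at a minimum of 5 UMIs, and the IGKV6-23, IGKV2-137 and IGKV1-117 chains with IGKJ2 in 5 each. Of the 113, 103 were also found in WT B cells and 25 in 564Igi cells without the knock-in chain. Counting each distinct chain once gave lambda 8.85% (4.33 to 15.7) of the other chains.

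The knock-in heavy chain was much rarer in dual cells than in knock-in-only cells. A heavy chain was found in 171 of the 190 cells (90%), against 91.3% of knock-in-only cells. The primary heavy chain was the knock-in chain in 20 of 171 dual cells (11.7%, 7.29 to 17.5), against 1652 of 2987 knock-in-only cells (55.3%, 53.5 to 57.1), a difference of -43.6 points (-48.4 to -37.6). A further 49 dual cells (28.7%, 22.0 to 36.1) carried another CDR3 that ends in the last 30 bases of the knock-in heavy chain with at most 2 mismatches, against 21.3% (19.9 to 22.8) of knock-in-only cells. The remaining 102 (59.6%, 51.9 to 67.1) had neither, against 23.4% (21.9 to 24.9). The dual cells were thus nearer to the 164 cells without the knock-in light chain than to knock-in-only cells. Of those 164, 19.5% had the knock-in heavy chain, 24.4% its end and 56.1% neither. All 3 differences between the dual cells and the 164 had intervals that included 0, the largest being -7.82 points (-16.0 to 0.354) for the knock-in heavy chain. Near copies of the knock-in light chain and cells with an unflagged knock-in contig were not set aside from the 164.

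**Figure D5:**
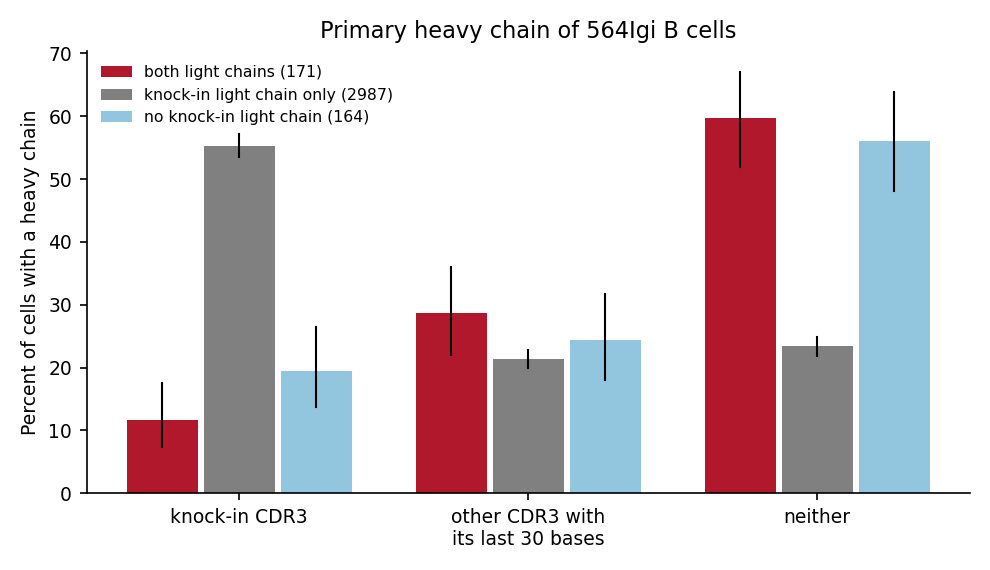
Percent of 564Igi cells with a heavy chain whose primary heavy chain was the knock-in CDR3, another CDR3 with its last 30 bases, or neither, with exact 95% intervals, for dual light chain, knock-in-only and no-knock-in cells. The knock-in heavy chain stands at 11.7%, 55.3% and 19.5%.

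Read the other way, dual cells made up 20 of 1704 564Igi cells with the knock-in heavy chain (1.17%, 0.718 to 1.81), 49 of 726 with its end (6.75%, 5.03 to 8.83) and 102 of 892 with neither (11.4%, 9.42 to 13.7). Any light chain other than the knock-in was found in 3.05%, 12.3% and 21.7% of these classes. Among cells with another light chain, the knock-in chain was found with the flag in 20 of 52 (38.5%, 25.3 to 53.0), 49 of 89 (55.1%, 44.1 to 65.6) and 102 of 194 (52.6%, 45.3 to 59.8), with overlapping intervals. The 187 cells counted as lacking it include 42 with an unflagged knock-in contig and 22 with a near copy. These shares therefore depend on the flag and on counting a near copy as another light chain.

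The UMI balance was also compared between the heavy chain classes. In the 20 dual cells with the knock-in heavy chain the median knock-in light chain share was 39.96% (27.2 to 59.1), and it was lower than the other chain in 13 (65.0%, 40.8 to 84.6). With the end the median was 28.1% (24.3 to 32.7) and the knock-in light chain was lower in 44 of 49. With neither it was 27.1% (25.7 to 29.4) and lower in 92 of 102. The intervals overlap, and the class with the knock-in heavy chain is small. Those of its cells with 2 heavy chains had knock-in shares of 17.3%, 38.9%, 44.4%, 48%, 65.4% and 74.2%. They may be droplets with 2 B cells, which was not tested. They were not set aside, here or in the counts that follow. Of the 22 dual cells with a heavy chain in which the knock-in light chain was equal or higher, 7 (31.8%, 13.9 to 54.9) had the knock-in heavy chain, against 13 of the 149 (8.72%, 4.73 to 14.5) in which it was lower. Lambda was the other chain in 6 of 20, 15 of 49 and 18 of 102 of the 3 classes.

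Among cells with heavy chains other than the knock-in, the end of the knock-in heavy chain was carried by 32.5% (25.1 to 40.5) of 151 dual cells, against 47.7% (45.0 to 50.4) of 1335 knock-in-only cells. The CDR3 of dual cells with the end had a median of 21 amino acids and of those with neither 13, against 20 and 14 in knock-in-only cells. A heavy CDR3 net charge of 1 or more was found in 61 of 151 (40.4%, 32.5 to 48.7), against 31.6% (29.1 to 34.2) in knock-in-only cells, a difference of 8.79 points (0.481 to 17.4), and 37.1% (28.9 to 46.0) in cells without the knock-in light chain. These charge shares pool chains with the end and chains with neither, which the groups hold in unlike shares. The charge is not given here within each class. IGHV1 genes made up 49.0% (40.8 to 57.3) of the heavy chains other than the knock-in in dual cells, against 47.1% in knock-in-only cells. Clonal overlap was low: the 171 cells held 167 combinations of heavy and other light chain, 4 of which occurred in 2 cells each. Of these 4, 3 had the knock-in heavy chain, so their cells share only the light chain as a product of their own rearrangement. The fourth joined IGHV9-3 to an IGKV5-39 chain, and its cells differed in depth, with 13 and 1922 knock-in UMIs, 9 and 2074 IGKV5-39 UMIs and 15 and 2299 heavy chain UMIs.

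The isotype of the dual cells was that of unswitched B cells. Of 166 cells with a named heavy chain constant gene, 142 (85.5%, 79.3 to 90.5) had IGHM, 23 (13.9%, 8.99 to 20.1) IGHD and 1 IGHG2C. IGHG1, IGHG2B, IGHG3, IGHA and IGHE were each found in 0 of 166, which allows up to 1.81%. Switched genes thus made up 0.602% (0.0153 to 3.31), against 0.754% (0.473 to 1.14) in knock-in-only cells, a difference of -0.152 points (-0.854 to 2.57). In cells without the knock-in light chain they made up 11 of 158 (6.96%, 3.53 to 12.1), a difference of -6.36 points for the dual cells (-11.5 to -1.98). Near copies of the knock-in light chain were not set aside from that group here. WT cells with at least 2 light chains had 2 of 794 switched. The switched dual cell had 33 knock-in UMIs and 7 of an IGKV14-111 chain with IGKJ4, among the highest knock-in shares, and its heavy chain, named IGHV1-64, had a CDR3 of the same length as the knock-in heavy chain's with 1 nucleotide mismatch. It is counted among the chains with the end, and as a near copy it cannot be told apart from an altered knock-in chain.

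More than 1 heavy chain was found in 23 of 171 dual cells (13.5%, 8.72 to 19.5), against 87 of 2987 knock-in-only cells (2.91%, 2.34 to 3.58), a difference of 10.5 points (5.76 to 16.6), and 6 of 164 cells without the knock-in light chain (3.66%, 1.35 to 7.79). In WT it was found in 282 of 832 cells with at least 2 light chains (33.9%, 30.7 to 37.2) and in 1.70% of those with 1. The heavy chains of the 23 cells were the end with an unrelated chain in 8, the knock-in with an unrelated chain in 7, the knock-in with the end in 2, 2 chains with the end in 2, 2 unrelated chains in 2, and 3 chains in 2. The second heavy chain had a median of 61.5% (45.9 to 71.4) of the UMIs of the first. A droplet with 2 B cells would show more than 1 heavy chain unless both carry the same one or 1 went undetected, and how many of the 190 are such droplets was not tested. In the 148 dual cells with exactly 1 heavy chain the knock-in light chain was lower in 131 (88.5%, 82.2 to 93.2), lambda was the other chain in 34 (23.0%, 16.5 to 30.6), and the knock-in heavy chain was present in 14 (9.46%, 5.27 to 15.4), against 56.3% (54.4 to 58.1) of 2900 such knock-in-only cells. In the 23 cells with more heavy chains the median knock-in share was 33.3% (29.7 to 44.4). Productive T cell receptor contigs were found in the barcodes of 3 of the 190.

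The cells at the ends of the balance, among those with at least 20 light chain UMIs, differed in their partner. The lowest knock-in share was 11.5%, from 3 knock-in and 23 IGLV1 UMIs in a cell without a heavy chain. The next were 12.9%, from 12 and 81 UMIs, and 14.8%, from 19 and 109 UMIs, both beside lambda chains and with heavy chains that carry the end of the knock-in. The highest was 84.9%, from 45 knock-in and 8 IGLV3 UMIs in a cell with the knock-in heavy chain. The IGKV4-68 and IGKV14-111 cells described above followed, both at 82.5%. All 3 lowest cells thus held lambda, which the flag let pass at a weaker ratio than kappa.

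A few dual cells were very deep. Light chain UMIs reached 1000 or more in 6 of 190 (3.16%, 1.17 to 6.75), against 27 of 3272 knock-in-only cells (0.825%, 0.544 to 1.20). The sum covers both light chains in dual cells and 1 in knock-in-only cells, so the limit is easier to reach in dual cells. In the least deep of the 6, the knock-in chain had 358 UMIs and the other chain 1339. Cells without the knock-in chain reached up to 15093 light chain UMIs. All 6 were IGHM, had heavy chains with neither the knock-in nor its end, and held kappa as the other chain. Their knock-in shares were 21.1%, 30.3%, 30.8%, 33.6%, 41.97% and 48.1%, on the same side of an even balance as most dual cells. The deepest held 4504 knock-in UMIs and 6227 of an IGKV10-96 chain. Gene expression was not analysed here, so the state of these cells was not examined.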

How the data were processed

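The 4 V(D)J libraries of the 2 mice were used, while gene expression was left aside and not analysed here. Cell Ranger 3.0.2 and the mm10 build are named in the submitters' processing notes. Per the file headers, each deposited table lists assembled contigs with their read and UMI counts, which are raw and not normalized, a cell call, a confidence flag, names of the V, J and constant genes and the CDR3 sequence. The criterion of the authors' flag was not given in the sources used here. The deposited contig length was used as given and entered no result printed here.

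Contigs with the same CDR3 nucleotides in a barcode were merged into the one with most UMIs, and the chain with most UMIs was primary. The knock-in heavy chain was matched by exact CDR3 nucleotides. V genes were named when at least 2-fold apart from WT primary kappa chains with non-overlapping exact intervals, besides the 10 most used, all J, constant and lambda V genes, chains in at least 3 cells, and the 3 highest and 3 lowest balances. The dual cells, the lists and the rules were chosen with earlier results of these data known. Intervals are at 95%, and beside a count of 0 stands the upper limit made by 3 counts. Both cover counting error only, since reads and UMIs of a cell are not independent cells. Alternatives changed the UMI minimum to 1 or 5, the flag, the barcodes called in both tables, the chain matching, the number of heavy or light chains, the depth (10 light chain UMIs per cell), the ratio of the chains, and counting by distinct chain. Gene positions are those of RefSeq on GRCm38.p6, which is the assembly of mm10. Scripts ran in Python 3.11.15 with SciPy 1.17.1, NumPy 2.4.6 and pandas 2.3.3, and figures were drawn with matplotlib 3.10.9.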

Additional observations from a re-analysis of the deposited data

Results flagged for a closer look

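Contigs outside the selection held a signal. The knock-in light chain CDR3 was found, without the confidence flag, in 42 of the 187 564Igi cells counted as lacking that chain (22.5%), against 0 of 6395 WT cells in any contig. If the flag is not asked for, 40 of these cells and 8 knock-in-only cells join the dual light chain cells. All 48 have a kappa chain as the other chain, and 10 of these (20.8%) are of the IGKV4 family.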

How the results depend on the processing

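Of 229 values recomputed for 21 results under 13 alternatives, 215 stayed within the interval of the reported value (counts within 1.5 times), 14 moved and 0 reversed. Some of the 215 could not move. No dual cell had a near copy, and all 190 held the same form of the knock-in chain. The ratio of 20% could not drop a dual cell with kappa as the other chain, since these had at least 20.2%. Without the confidence flag the dual share of holders was 6.80%, the median knock-in share 25.8%, the lambda difference from cells without the knock-in chain -18.1 points (-27.6 to -8.74, no longer including 0), and the IGKV4 difference from WT primary chains -6.65 points, where -11.6 was reported. By construction, 40 kappa cells change groups in this alternative. Thinned to 10 light chain UMIs, the knock-in chain was lower in 72.2%, with a median share of 30%, and by construction the medians became 10 UMIs for the light chains together, 3 for the knock-in and 7 for the other chain. Counting each distinct chain once gave lambda 8.85%, a lambda difference from WT second chains of 6.34 points, an IGKV4 difference of -21.7 points and 0 V genes apart from WT. Keeping barcodes called in both tables left 1 V gene apart. Both added alternatives, without IGKV4 genes and without cells of 1000 or more UMIs, were chosen after seeing the data. No paired analysis was possible because each genotype has 1 mouse. That number, the missing doublet calls and the 20 dual cells with the knock-in heavy chain limit all comparisons.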
